A study of Homo sapiens with 2 samples.

Results

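The replication-independent histone genes described here are 9 variant histone genes: H2AZ1, H2AZ2, H3-3A, H3-3B, MACROH2A1, MACROH2A2, H1-10, H2AX and H2AJ. They were chosen by name, as variant genes whose mRNA is mostly polyadenylated, and matched by symbol to Ensembl IDs. All 9 were found among the 60683 genes of the count table. RNA-seq was made from HEK293T cells, human embryonic kidney cells carrying SV40 large T antigen, in which FKBP5 was stably knocked down with short hairpin RNAs. The samples are 2 libraries of 1 group, FKBP5 knockdown, referred to as sample 1 and sample 2. Every value below is therefore a level in knockdown cells or a difference between 2 knockdown libraries. Cells with a scrambled control are mentioned in the labels and were not analysed here. The labels name neither the hairpin, a clone nor separate cultures. The p-values set the difference between these 2 libraries against counting error only, and that difference may be technical.

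Most histone mRNA is made in S phase from clustered genes without introns, and it ends in a stem-loop that the protein SLBP binds instead of a poly(A) tail. Replication-independent genes supply variant histones throughout the cell cycle, from mRNAs that are polyadenylated and in many cases spliced. The variants replace the bulk histones at particular sites: H2A.Z near promoters, H3.3 in transcribed chromatin and at telomeres, macroH2A in silent chromatin including the inactive X chromosome. H2AX is phosphorylated beside DNA double-strand breaks, and the linker histone H1.10 binds between nucleosomes.

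Sample 1 held 9997706 counts and sample 2 held 21284648, with 31310 and 38571 genes counted at least once, so each value is more precise in sample 2. For this bulk RNA, fewer cells of a type and less RNA per cell cannot be told apart. All 11 markers of HEK293T cells reached a mean of 1 CPM, led by NEFL, VIM and LIN28B at 297, 128 and 101 CPM. Fibroblast markers summed to 62.2 and 73.0 CPM over 6 genes, mostly from COL1A1. Of these 6, 3 averaged below 1 CPM, among them DCN with 1 and 2 counts and POSTN with 1 and 1. None of 6 hepatocyte and keratinocyte markers reached 1 CPM. No marker of these other cell types was at 0 in both samples, but such low counts do not show that the cells were present. COL1A1 (54.0 and 65.4 CPM) was lower in sample 1 by the test described below. COL3A1 (5.98 and 4.71 CPM) was higher in sample 1 and PDGFRA (1.16 and 1.92 CPM) lower, and neither passed that test. The part of other cells in the differences between samples was not tested. FKBP5 itself had 3.95 and 3.52 CPM, and the depth of its knockdown cannot be read without control cells.

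Of the 9 genes, 8 were expressed at 69.6 to 314 CPM and H2AJ was at the limit of detection. CPM here is the authors' value, in which counts are multiplied by 1 fixed factor in each library, with no correction for gene length. The medians over the 9 genes were 178 CPM in sample 1 and 150.3 CPM in sample 2. Of the 9 genes, 7 averaged 100 CPM or more. Per kb of exons, which allows genes to be compared, the 8 lay between the percentiles 70.9 (MACROH2A1) and 99.4 (H1-10) of 15530 genes averaging 1 CPM or more. The 9 genes took 0.161% of all counts in sample 1 and 0.151% in sample 2.

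**Figure D1:**
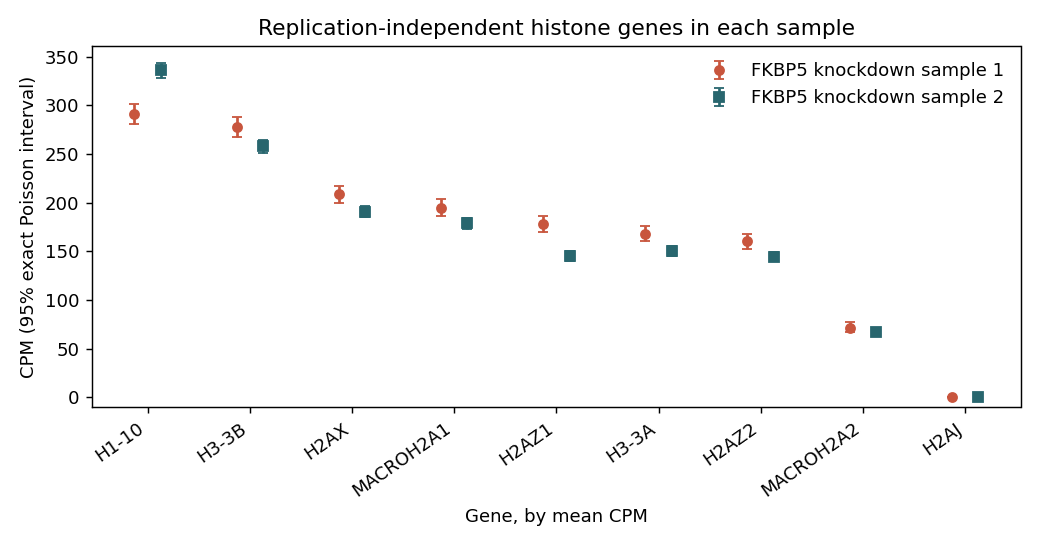
CPM of the 9 replication-independent histone genes in FKBP5 knockdown samples 1 and 2, ordered by mean CPM, with 95% exact Poisson intervals that cover counting error only. H1-10 is the only gene of the 9 with its higher value in sample 2 (291 CPM in sample 1, 336 CPM in sample 2), while H2AJ lies at 0.193 and 0 CPM.

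The H2A.Z genes, which encode near-identical proteins, contributed nearly equal counts. H2AZ1 (ENSG00000164032; chromosome 4, 99948086 to 99950388, minus strand, GRCh38, GENCODE 29) yielded 1846 counts and 178 CPM (95% exact Poisson interval 169.9 to 186) in sample 1, and 3166 counts and 145 CPM (139.9 to 150.0) in sample 2, averaging 161 ± 23.4 CPM (SD, n = 2). H2AZ2 (ENSG00000105968; chromosome 7, 44826791 to 44848083, minus strand) reached 160.3 CPM (153 to 168) in sample 1, from 1663 counts, and 145 CPM (139.5 to 149.6) in sample 2, from 3158, averaging 152 ± 11.2 CPM. Both genes were higher in sample 1, and for neither did the intervals of the samples overlap. The H2AZ1 part of the pair was 52.6% of 3509 counts in sample 1 (95% interval by Wilson's method, 51.0 to 54.3%) and 50.1% of 6324 in sample 2 (48.8 to 51.3%), a share that does not depend on how the libraries are scaled.

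H3.3 is encoded by H3-3A and H3-3B, whose proteins are identical although the coding sequences are not. H3-3B (ENSG00000132475; chromosome 17, 75776434 to 75785893, minus strand) was measured at 277 CPM (267 to 288) from 2878 counts in sample 1, against 258 CPM (251.1 to 265) from 5634 counts in sample 2, averaging 268 ± 13.8 CPM. H3-3A (ENSG00000163041; chromosome 1, 226061851 to 226072001, plus strand) yielded 1741 counts and 168 CPM (160.0 to 176) in sample 1, and 3285 counts and 150.3 CPM (145 to 156) in sample 2, averaging 159 ± 12.4 CPM. H3-3B supplied 62.3% of the pair in sample 1 (60.9 to 63.7%) and 63.2% in sample 2 (62.2 to 64.2%). The intervals of this share overlap between samples, although both genes were higher in sample 1.

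The level of H3-3A has to be read beside that of a pseudogene, H3P6 (ENSG00000235655; chromosome 2, 174719908 to 174720318, plus strand), which carries the H3-3A coding sequence without a change. Over 408 coding bases H3P6 differed from H3-3A at 0 positions and H3-3B differed from H3-3A at 88, of which 77 were the last position of a codon. The opening 120 coding bases, from the GENCODE 29 transcripts, are printed to show which reads can be told apart, with bases that differ from H3-3A in capitals.
H3-3A: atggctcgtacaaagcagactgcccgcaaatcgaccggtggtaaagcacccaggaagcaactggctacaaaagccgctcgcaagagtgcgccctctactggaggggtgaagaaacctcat
H3-3B: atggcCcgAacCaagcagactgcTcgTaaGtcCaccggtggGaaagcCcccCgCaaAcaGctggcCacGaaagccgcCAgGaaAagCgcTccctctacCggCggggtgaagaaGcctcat
H3P6: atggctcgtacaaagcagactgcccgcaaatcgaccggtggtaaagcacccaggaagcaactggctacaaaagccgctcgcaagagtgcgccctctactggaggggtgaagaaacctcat
The longest identical run between H3-3A and H3-3B was 14 bases, so a read of 50 coding bases separates these genes. No such read separates H3-3A from H3P6 by its letters. H3P6 nevertheless had 559 counts in sample 1 and 1120 in sample 2 (53.9 and 51.2 CPM), which were 32.1% and 34.1% as many as H3-3A had. How reads were divided between them when counting was not tested. With the H3P6 counts added to H3-3A, its level would be 212 ± 14.2 CPM and the H3-3B share 55.6% in sample 1 (54.2 to 56.9%) and 56.1% in sample 2 (55.1 to 57.1%). H3-3B remained the larger contributor of counts in both samples either way.

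**Figure D2:**
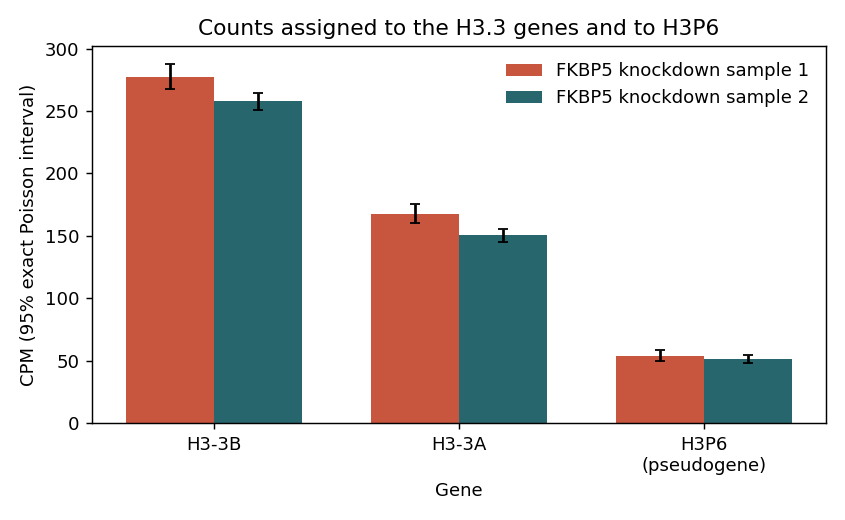
CPM assigned to H3-3B, H3-3A and the pseudogene H3P6 in FKBP5 knockdown samples 1 and 2, with 95% exact Poisson intervals. H3P6 stands at 53.9 and 51.2 CPM, well below the H3-3A bars at 168 and 150.3 CPM.

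Other pseudogene copies drew few counts. Of the stretches of 50 bases in the transcripts of each gene, the share found in no other gene was lowest for H3-3A at 88.3%, which shared stretches with 12 genes. After H3P6 the highest of these were H3P16, with 8 counts in sample 1 and 19 in sample 2, and H3P47 and H3P14, with 2 and 4 each. The share was 96.0% for H3-3B, whose retrocopy H3-5 had 5 and 10 counts. It was 97.6% for H2AZ1, whose pseudogene H2AZP3 had 1 and 1, and 97.0% for H2AZ2, which shared stretches with 28 genes. Of those 28, MRPL42, PTK7 and CLIP1 had the most counts and shared 2 stretches each. The pseudogene H2AZ2P1, named after its counts were seen, shared 104 and had 4 counts in sample 1 and 6 in sample 2. H2AX had 99.7%, with stretches shared with H2AC25, and MACROH2A1, MACROH2A2, H1-10 and H2AJ had 100%.

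The macroH2A genes, which encode an H2A fold joined to a large macro domain, were unequal in counts. MACROH2A1 (ENSG00000113648; chromosome 5, 135333900 to 135399914, minus strand) reached 195 CPM (186 to 203) in sample 1, from 2020 counts, and 179 CPM (173 to 184) in sample 2, from 3901, averaging 187 ± 11.4 CPM. MACROH2A2 (ENSG00000099284; chromosome 10, 70052796 to 70112280, plus strand) was measured at 71.6 CPM (66.6 to 76.95) from 743 counts in sample 1, against 67.5 CPM (64.1 to 71.1) from 1476 counts in sample 2, averaging 69.6 ± 2.88 CPM. MACROH2A1 supplied 73.1% of the pair in sample 1 (71.4 to 74.7%) and 72.5% in sample 2 (71.3 to 73.7%), and these intervals overlap.

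H2AX, whose protein is phosphorylated beside DNA breaks, was among the higher of the 9 genes. H2AX (ENSG00000188486; chromosome 11, 119093854 to 119095467, minus strand) yielded 2162 counts and 208 CPM (199.7 to 217) in sample 1, and 4169 counts and 191 CPM (185 to 197) in sample 2, averaging 199.6 ± 12.5 CPM. It alone of the 9 carried the histone stem-loop motif in a protein-coding transcript: a 5′ stem GGCNCT, a loop TTTN and a 3′ stem AGNGCC without gaps, searched on the transcript strand. The motif was found in 34 of 19684 protein-coding genes (0.173%), a count limited to annotated transcripts, which may stop short of the 3′ end. The site in H2AX and that of the replication-dependent gene H2AC25, which also had counts here, are printed with the motif in capitals and 5 bases on each side.
H2AX: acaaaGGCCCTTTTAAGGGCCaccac
H2AC25: ataaaGGCTCTTTTCAGAGCCaccta
In the H2AX transcript the motif spans bases 555 to 570 of 1614, and a poly(A) signal, AATAAA or ATTAAA, lies in the last 50 bases. The annotated transcript thus runs on past the stem-loop, and the counts do not separate the shorter form from the longer. A poly(A) signal in the last 50 bases of a coding transcript was found for 8 of the 9 genes, all but MACROH2A1, and for 81.9% of all protein-coding genes.

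H1-10 was the highest of the 9. This intronless gene for the linker histone H1.10 (ENSG00000184897; chromosome 3, 129314771 to 129316277, minus strand) reached 291 CPM (281 to 302) in sample 1, from 3021 counts, and 336 CPM (328 to 344) in sample 2, from 7342, averaging 314 ± 31.7 CPM. Sample 2 was the higher library for this gene, and the intervals do not overlap. Its antisense neighbour H1-10-AS1, whose exons cover 22.9% of H1-10, had 57 and 146 counts. The protocol marks strand, but whether the counting used it is not stated, so reads of this pair may not be told apart. PITX1-AS1, on the other strand from MACROH2A1, overlaps 28.0% of its exonic bases (8 and 23 counts), and UNK overlaps 3.49% of those of H3-3B (687 and 1402 counts).

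H2AJ, an H2A variant known to accumulate in senescent human fibroblasts, was barely detected. H2AJ (ENSG00000246705; chromosome 12, 14774383 to 14778002, plus strand) was counted 2 times in sample 1, or 0.193 CPM (0.0233 to 0.696), and 0 times in sample 2, where the same exact Poisson interval ends at 0.169 CPM. Both libraries were below the floor of 3 counts used here (0.289 CPM in sample 1, 0.137 CPM in sample 2), so no ratio is given. No other gene overlaps H2AJ in GENCODE 29.

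Because CPM favours long transcripts, levels were compared between genes per kb of length, and the order of the genes depended on the length used. Per kb of the union of annotated exons, H1-10 led at 193 and 223 CPM per kb, a mean of 208, followed by H2AX at 124 ± 7.72 and H2AZ1 at 70.1 ± 10.1. Next came H3-3A at 50.6 ± 3.93, H3-3B at 43.6 ± 2.26, MACROH2A2 at 35.1 ± 1.45, H2AZ2 at 32.1 ± 2.35 and MACROH2A1 at 10.5 ± 0.646 CPM per kb. H2AJ was last at 0.0287 CPM per kb. The values of neighbouring genes in this order did not overlap between samples: the closest were MACROH2A2 at 36.2 and 34.1 CPM per kb and H2AZ2 at 33.8 and 30.4, whose means ± SD overlap. Per kb of the longest protein-coding transcript the order was H1-10 (208), H2AZ1 (165 ± 23.9), H2AX (124), H3-3B (98.9 ± 5.12), H3-3A (85.4 ± 6.64), MACROH2A1 (66.9 ± 4.10), H2AZ2 (40.1 ± 2.93), MACROH2A2 (35.1) and H2AJ (0.150), again in CPM per kb. Here too no neighbours overlapped between samples, but H1-10 (193 and 223) and H2AZ1 (182 and 148) also overlap in mean ± SD. H1-10 and H2AX, each with 1 annotated length, were the same under both, as was MACROH2A2, with 1980 bases by either length.

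The pairs changed places with the length. Per kb of exons H3-3B supplied 45.9% of the H3.3 pair in sample 1 and 46.8% in sample 2, and per kb of the longest coding transcript 53.2% and 54.2%. The share of MACROH2A1 in its pair was 23.3% and 22.8% per kb of exons, and 65.9% and 65.2% per kb of the longest coding transcript. Its annotated exons span 17730 bases against 2789 in the longest coding transcript. The share of H2AZ1 in its pair was 69.6% and 67.4% per kb of exons, and 81.2% and 79.6% per kb of the longest coding transcript. Per kb of the median coding transcript the H2A.Z order was reversed, with a mean of 165 CPM per kb for H2AZ1 and 232 for H2AZ2. Which gene was higher per kb thus depended on the length in all 3 pairs.

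**Figure D3:**
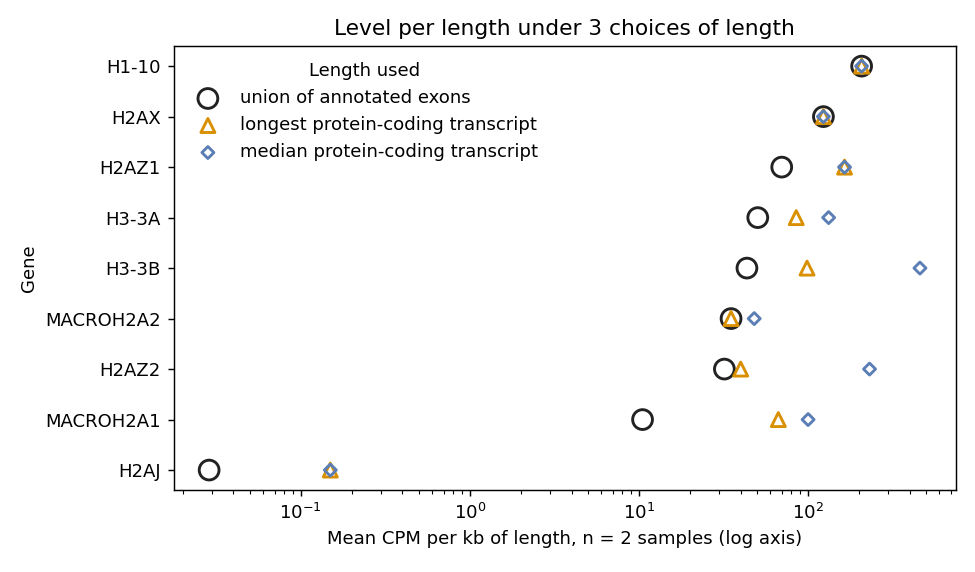
Mean CPM per kb (log axis, n = 2 samples) of the 9 genes for 3 choices of length. The symbols coincide for H1-10 (208) and H2AX (124), while MACROH2A1 runs from 10.5 CPM per kb of exons to 100.4 per kb of the median coding transcript and H3-3B from 43.6 to 461.

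Between the 2 knockdown libraries, 7 of the 8 genes that could be tested differed, 6 of them higher in sample 1 and H1-10 lower. Counts were compared by a 2-sided exact binomial test, taking the expected share of reads from the deposited CPM scaling, and p was adjusted after Benjamini and Hochberg across 15530 genes. The test compares libraries and not conditions, and it separated 8.71% of all genes tested, 4.42% higher in sample 1 and 4.29% lower. Its reach grows with counts: of 4738 genes averaging 50 CPM or more, 19% were separated, 11.2% higher in sample 1 and 7.77% lower. The median log2 ratio over the 8 genes was 0.13, beside -0.01 over all genes tested and 0.01 over those with at least 50 CPM. The scaling weighs on the split of all calls, which was 686 higher and 667 lower as deposited, 885 and 569 with column totals and 537 and 839 with DESeq2 size factors.

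H2AZ1 had the largest difference of the 8, a log2 ratio of CPM + 1 (sample 1 over sample 2) of 0.29 (adjusted p = 9.23e-10, exact binomial test). H3-3A had 0.16 (adjusted p = 0.00579), H2AZ2 0.15 (adjusted p = 0.0131) and H2AX 0.13 (adjusted p = 0.0167), in the same exact test. H3-3B had 0.11 (adjusted p = 0.0234) and MACROH2A1 0.12 (adjusted p = 0.0253). These last were not called with DESeq2 size factors (adjusted p = 0.0681 for H3-3B and 0.0617 for MACROH2A1), nor when every counted gene was tested (0.0615 and 0.0665). MACROH2A2, the least counted of the 8, had 0.08 and did not pass (adjusted p = 0.512). H1-10 had -0.21 (adjusted p = 4.85e-09). No gene of the 8 reached 1.5-fold, and 0.657% of all genes tested were both separated and past that fold. The median absolute log2 ratio of the 4738 genes with at least 50 CPM was 0.07, and all 8 lay above it.

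**Figure D4:**
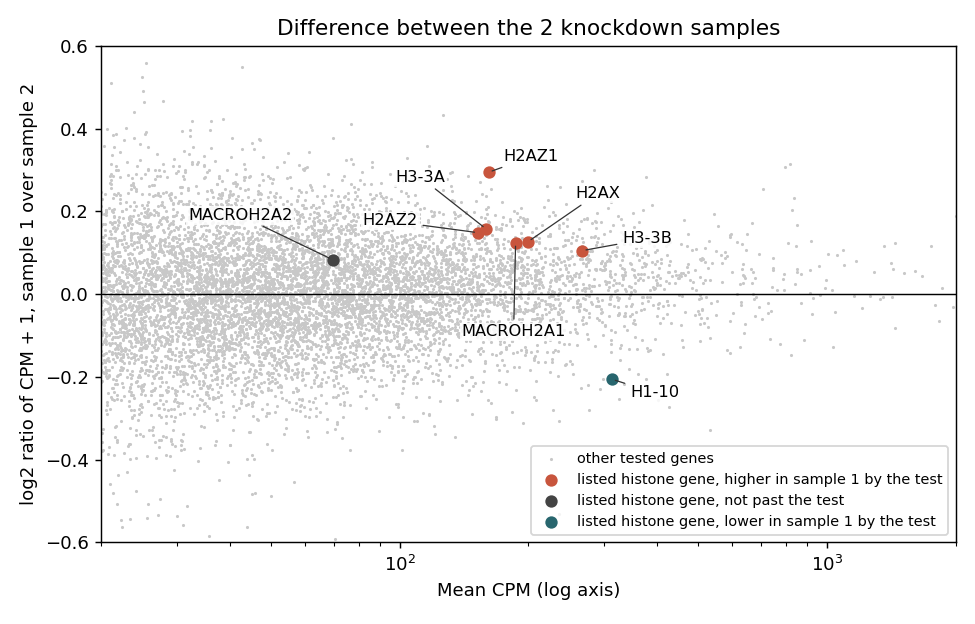
Log2 ratio of CPM + 1 in sample 1 over sample 2 against mean CPM for 8326 genes at 20 to 2000 CPM (6 lie outside the vertical limits), with the 8 tested histone genes in colour. H2AZ1 at 0.29 and H1-10 at -0.21 lie at opposite edges of the cloud at their level, and the other 6 lie above 0, between 0.08 and 0.16.

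The signs were the same after a correction for GC content. H1-10 and H2AX had the most GC-rich transcripts of the 9, at 68.6% and 66.4%, and differed in opposite directions. The genes of their GC class, 1 of 20 over all genes tested, had a median log2 ratio of -0.06. With the median of its own class subtracted, H1-10 stood at -0.15 and H2AX at 0.19. The other 6 then stood between 0.10 (MACROH2A2) and 0.31 (H2AZ1). This correction was chosen after the values were seen.

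The promoters of the 9 genes, the 250 bases before each RefSeq start (GRCh38.p14), were searched for motifs that the choice of genes did not use. The motifs were CCAAT and TATAAA, each searched on both strands (ATTGG and TTTATA on the other). CCAAT was found for 7 of the 9 genes, all but H1-10 and MACROH2A2, and in 32.0% of 35116 promoters. A gene is counted if any of its listed starts held the motif, while the percentages are per promoter. H3-3B, H2AX and H2AZ2 held 4 copies each, and H2AZ1 and H2AJ 3 each. Of all promoters, 2.93% held 3 or more. TATAAA was found for H1-10, H2AX, H3-3B and H2AZ1, starting 29 to 31 bases before the start, and in 10.7% of all promoters. H3-3A and MACROH2A1 have several listed starts, 4 and 2, of which 3 and 1 held CCAAT. Because CCAAT boxes occur in the promoters of both H2AX and the barely counted H2AJ, these are printed with those of H3-3B and H1-10, the genes with the most counts, with motifs in capitals.
H2AX, chr11:119095466-119095715, minus strand: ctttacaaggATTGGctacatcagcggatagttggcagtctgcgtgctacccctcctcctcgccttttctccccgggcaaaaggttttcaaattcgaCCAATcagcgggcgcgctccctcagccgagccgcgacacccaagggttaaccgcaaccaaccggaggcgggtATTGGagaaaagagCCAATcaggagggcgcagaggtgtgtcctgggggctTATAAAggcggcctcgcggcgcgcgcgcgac
H2AJ, chr12:14774155-14774404, plus strand: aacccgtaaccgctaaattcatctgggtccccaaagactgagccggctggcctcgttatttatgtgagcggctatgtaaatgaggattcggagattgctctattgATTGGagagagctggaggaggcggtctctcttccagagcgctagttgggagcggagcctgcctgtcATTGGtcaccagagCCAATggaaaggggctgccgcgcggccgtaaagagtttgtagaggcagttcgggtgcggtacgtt
H3-3B, chr17:75779780-75780029, minus strand: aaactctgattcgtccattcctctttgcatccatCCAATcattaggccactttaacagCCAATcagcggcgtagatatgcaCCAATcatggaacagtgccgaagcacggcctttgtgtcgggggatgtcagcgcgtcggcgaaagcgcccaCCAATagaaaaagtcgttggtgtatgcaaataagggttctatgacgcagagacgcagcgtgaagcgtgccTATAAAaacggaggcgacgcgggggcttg
H1-10, chr3:129316287-129316536, minus strand: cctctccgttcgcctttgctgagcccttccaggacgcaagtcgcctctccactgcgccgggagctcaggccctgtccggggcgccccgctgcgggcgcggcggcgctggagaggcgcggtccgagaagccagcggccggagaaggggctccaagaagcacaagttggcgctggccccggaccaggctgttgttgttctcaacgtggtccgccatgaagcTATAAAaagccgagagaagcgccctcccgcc
H2AJ and H2AX held 3 and 4 copies of CCAAT at levels of 0.0287 and 124 CPM per kb of exons. With 4 copies each, H3-3B and H2AZ2 had 43.6 and 32.1 CPM per kb, and H2AZ1 with 3 had 70.1. H1-10 and MACROH2A2 held none, at 208 and 35.1 CPM per kb. Whether the number of copies goes with the level was not tested. A match describes these letters only and is not a site.

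The 9 genes held more counts than the replication-dependent histone genes together, 16076 against 1938 in sample 1 and 32131 against 3872 in sample 2. Of the other replication-independent histone genes, CENPA, the centromeric H3 variant, had 30.7 and 27.5 CPM, and the H3-3B retrocopy H3-5 had 0.482 and 0.458. The replication-dependent genes, 68 of 70 names matched, summed to 187 and 177 CPM, and 20 of the 68 reached a mean of 1 CPM. The highest were H2BC12 at 51.0 ± 2.20 CPM, H2AC25 at 44.4 ± 0.301 CPM and H1-2 at 10.3 ± 0.343 CPM. Per kb of exons H2BC12 had 134 ± 5.77 and H2AC25 49.6 ± 0.336 CPM per kb, which placed H2BC12 between H1-10 and H2AX. That place rests on an annotated length of 381 bases for H2BC12, against 1507 for H1-10 and 1614 for H2AX. The 381 bases hold neither the stem-loop motif nor a poly(A) signal at their end. How a longer annotation would change the value was not tested. None of the 20 tested replication-dependent genes passed the binomial test (at the same 8.71% over all genes). All of them but H2BC12 and H2AC25 averaged 10.3 CPM or less, where the test has little reach. H2BC18 with a log2 ratio of 0.58 and H4C16 with -0.69 did not pass, so the result does not show these genes as steadier than the 9. How far the library protocol or the counting keeps mRNA without a poly(A) tail was not tested, so these are counts and not amounts of histone mRNA.

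**Figure D5:**
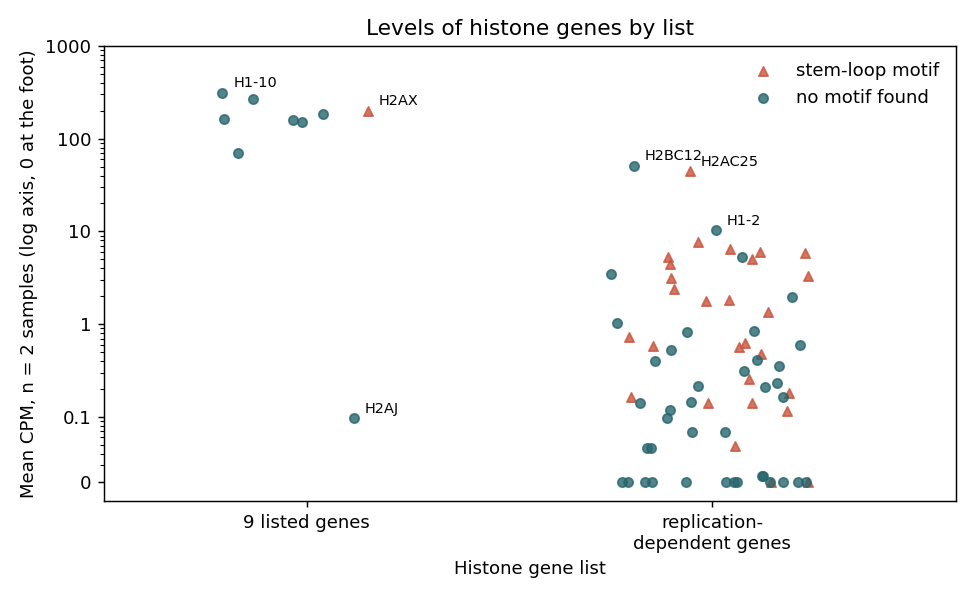
Mean CPM (log axis, n = 2 samples, 0 drawn at the foot) of the 9 genes and of replication-dependent histone genes. Triangles mark genes whose annotated transcript holds the stem-loop motif. Of the replication-dependent genes with a coding transcript, 28 held it and 38 did not. Annotations may stop short of the 3′ end, so a gene without a triangle may still have a stem-loop. CPM is not scaled to length: all of the 9 but H2AJ are at 69.6 CPM or more, and H2BC12 is at 51.0 CPM.

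All listed factors that deposit and read these variants averaged at least 1 CPM. The counts that passed the test in each list stand beside 8.71% over all genes and 19% over genes averaging 50 CPM or more. The median levels of the 4 lists lay between 59.2 and 108 CPM. Of 10 chaperones and partners of H3.3, 10 had at least 1 CPM, led by DEK, NASP and CABIN1 at 338, 273 and 207 CPM. Of these, ASF1A passed the test as higher in sample 1 (26.1 CPM in sample 1, 19.5 CPM in sample 2) and ATRX as lower (101 and 118 CPM). HIRA and DAXX, which guide H3.3 to transcribed and to heterochromatic regions, had 26.2 ± 1.36 and 66.2 ± 2.26 CPM and did not pass. Of 14 genes for H2A.Z exchange and removal, led by the ATPases RUVBL2 at 350.4 CPM, EP400 at 207 CPM and RUVBL1 at 181 CPM, 2 were higher and 1 lower. RUVBL1 stood at 192 and 169 CPM in samples 1 and 2, and ACTR6, a subunit of the SRCAP complex, 38.9 and 30.7 CPM. EP400 was the lower one, at 197 and 218 CPM. SRCAP itself, a main ATPase for H2A.Z loading, had 10.3 ± 1.22 CPM. ANP32E, a chaperone that removes H2A.Z, had 179 ± 7.65 CPM.

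Of 17 kinases, phosphatases and readers of H2AX, all had at least 1 CPM, led by PRKDC, SUPT16H and PPP4C at 602, 486 and 353 CPM. PRKDC is the catalytic subunit of the DNA-dependent protein kinase, SUPT16H a subunit of the histone chaperone FACT, and PPP4C a phosphatase. The phosphatase subunit PPP2CA was higher in sample 1 (76.2 and 65.2 CPM) and MDC1, which binds phosphorylated H2AX, was lower (114 and 130 CPM). The kinases ATM and ATR had 66.8 ± 1.01 and 50.6 ± 3.32 CPM. Of 16 genes for replication-coupled histone supply and histone mRNA 3′ processing, led by SYMPK, CHAF1A and RBBP7 at 259, 257 and 193 CPM, 1 passed the test. This was the polyadenylation factor CSTF2T, higher in sample 1 at 51.3 and 42.5 CPM. SLBP, the stem-loop binding protein, had 75.3 ± 1.49 CPM, and did not pass the test. The genes that passed in these 4 lists, other than EP400 and RUVBL1, were named after their values were seen, as were HIRA, DAXX, SRCAP, ANP32E, ATM, ATR and SLBP. Over the lists the median log2 ratios were -0.03, 0.00, 0.03 and -0.02, in the order given, beside -0.01 over all genes tested.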

How the data were processed

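RNA was extracted with TRIzol and directional libraries were made from total RNA, per the labels' protocols. The authors deposited a table of whole-number counts per Ensembl gene and, for each sample, CPM. Per the submitters' processing notes, STAR 2.7.7a, edgeR and GRCh38 were used. The sources used here name no counter, strand setting or annotation. The deposited CPM equal the counts multiplied by a fixed factor in each library (100% of values gave whole reads, tolerance 1e-06), and the library size behind them was 3.78% and 2.68% above the column totals of samples 1 and 2. The count test was therefore run on the deposited counts.

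The 9 genes and all gene lists were chosen with earlier results of these data known. Symbols were found for 99.5% of gene IDs, and 96.4% were in GENCODE 29, which gave coordinates, lengths and transcripts. Of 188 listed names, 7 matched no gene. Results for some listed genes are not reported here. Besides the 9 genes, the text names the 3 genes with the highest mean CPM of each list and up to 3 genes sharing stretches with a gene. With 2 samples, no likeness of pattern between genes was computed.

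Ratios are log2 of CPM + 1 in sample 1 over sample 2. The exact binomial test doubles the smaller tail, covers genes averaging 1 CPM or more and calls at an adjusted p under 0.05. It holds no variation between cultures. With 1 library on each side no dispersion can be estimated, so edgeR 4.0.16 and DESeq2 1.42.0 (R 4.3.3) gave scaling factors only. Intervals and floors (3 counts, 0.289 and 0.137 CPM) cover counting error only, since reads carry no stated molecular identifiers. Calculations used scipy 1.17.1, numpy 2.4.6 and pandas 2.3.3 under Python 3.11.15, and plots matplotlib 3.10.9.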

Additional observations from a re-analysis of the deposited data

How the results depend on the processing

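No paired analysis was possible because both samples belong to 1 group. Among the 8 histone genes tested, calls changed for H3-3B and MACROH2A1, as given above. Of the 9 genes, 8 kept the sign of their ratio under every scaling, filter and pseudocount tried and after the GC correction; H2AJ was given no ratio. With DESeq2 size factors, or with every counted gene tested, 4 were called higher in sample 1 and 1 lower, and 6 and 1 under the other settings. Calls over all genes ranged from 942 (every counted gene) to 1457 (TMM). Leaving out a sample gave H2AZ1 145 to 178 CPM, H2AZ2 144.5 to 160.3 CPM, H3-3A 150.3 to 168 CPM and H1-10 291 to 336 CPM.

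Per kb of the longest coding transcript, levels were 165 (H2AZ1), 40.1 (H2AZ2), 85.4 (H3-3A), 98.9 (H3-3B), 66.9 (MACROH2A1) and 0.150 (H2AJ) CPM per kb. Per kb of the median coding transcript they were 165, 232, 133, 461, 100.4 and 0.150 for the same genes, and 48.2 for MACROH2A2. The union, longest and median lengths differ by construction. Mean shares per kb of exons and of the longest coding transcript were 68.5% and 80.4% for H2AZ1, 46.3% and 53.7% for H3-3B, and 23.0% and 65.6% for MACROH2A1. With H3P6 added to H3-3A, an alternative chosen after seeing the data, the H3-3B share was 55.9%. With stretches of 75 and 100 bases in place of 50, the unique share of H3-3A was 89.0% and 89.7%, and that of the other 8 genes at least 98.4% and 98.9%.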
